A study of Mus musculus with 5 samples.

Results

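The organic ion transporters of the Slc22 and Slco families were examined in mouse liver. Members were the non-control probes whose RefSeq accession mapped to a symbol of either family, with Slco1b2 left out. This gave 40 probes for 32 genes, 22 of Slc22 and 10 of Slco, among 41174 probes and 17016 named genes. Of 40 such symbols in the annotation, 8 had no probe matched in this way (Slc22a13b, Slc22a15, Slc22a27, Slc22a28, Slco1a1, Slco5a1, Slco6b1 and Slco6d1). The tested samples were 5 livers of male C57BL/6N mice on an ethanol diet for 8 weeks followed by 3 ethanol binges of 5 g per kg, labelled with Cy5 on 2-colour Agilent arrays. The Cy3 channel of every array carried a purchased mouse RNA named Ambion Mouse Assorted Total RNA, whose tissue the labels give as liver. No array had its dyes exchanged, and no mice without ethanol were analysed here, so a ratio sets these livers against that RNA and not ethanol against a control diet. Nothing in the labels tells if each sample is its own animal, so the p-values below rest on a spread between samples that could be wholly technical.

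Slc22 proteins move organic cations, organic anions, urate and carnitine across the plasma membrane, and Slco proteins (the organic anion transporting polypeptides) take up bile acids, steroid conjugates, thyroid hormones, prostaglandins and many drugs. In hepatocytes, members of both families stand on the blood-facing membrane, where they supply substrates for metabolism and for export into bile. Several other members are best known from kidney, testis or the blood-brain barrier.

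The labelled tissue was checked first. All 14 hepatocyte markers with a probe were well above background in every liver, with a median over genes of 71193 scanner units of background-subtracted signal in liver and 45302 in the reference RNA. The scanner's flag for signal well above background was lenient. Of the kidney markers with a probe, 11 of 12 passed it on at least 3 liver arrays, as did 10 of 12 testis markers, with median signals of 174.5 and 154 in liver against 223 and 190 in the reference RNA. Passing the flag is therefore given below as detection of a probe's signal, and signals of different probes are not ranked against each other.

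Detection separated 26 genes, well above background in liver on at least 3 of 5 arrays, from 6 near background. Over all named genes 89.1% passed the same rule. This was 81.2% of the 32 members. A probe passed on all 5 arrays in 23 of the 32 genes (71.9%), against 84.5% of all named genes. The 3 just inside the rule were Slc22a2, Slc22a14 and Slc22a22, each on 3 arrays, with median liver signals of 25.4, 19.8 and 39.2. Just outside stood Slc22a3 on 2 arrays (23.3) and Slco1c1 on 1 array (15.0). Slc22a29, Slco1a6, Slco4a1 and Slco4c1 passed on 0 arrays, with median liver signals of 0.539, 6.39, 5.61 and -5.83. Slco1c1 carries thyroxine at the blood-brain barrier and Slco4c1 is a kidney carrier.

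**Figure D1:**
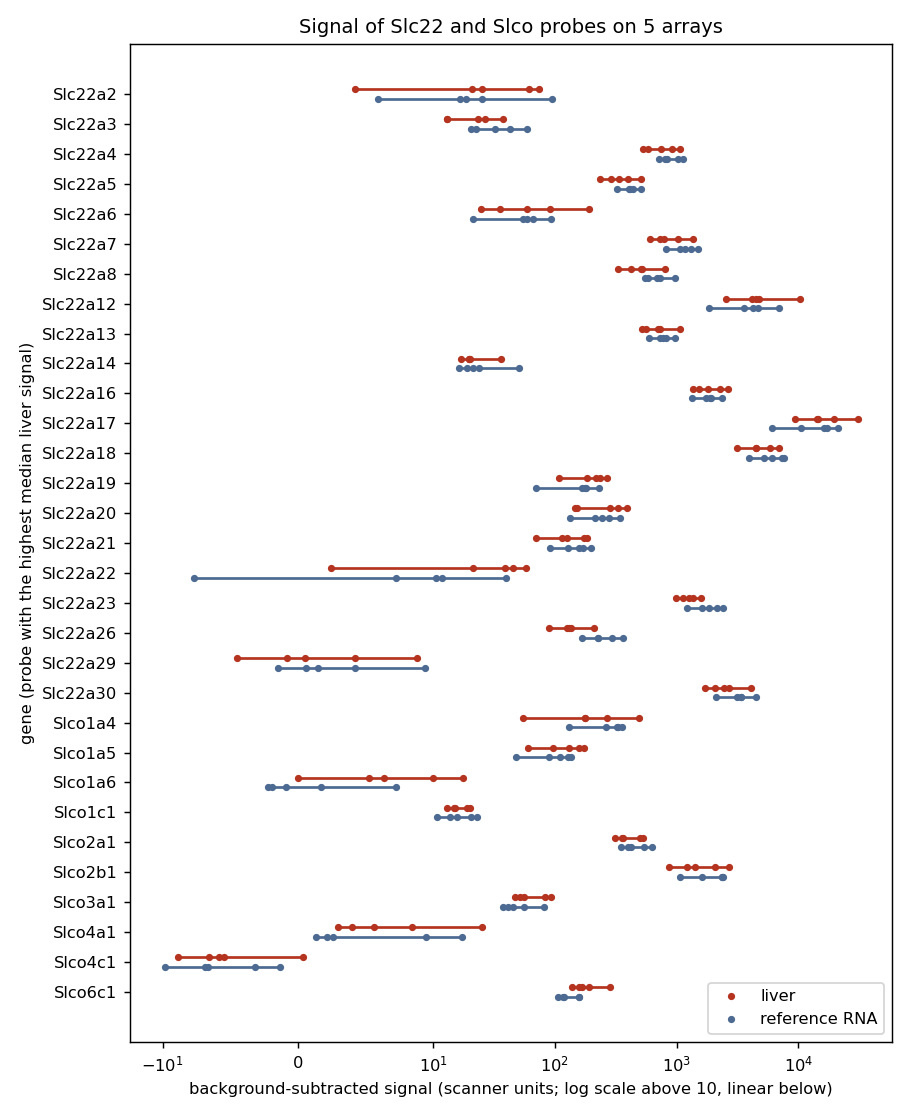
Background-subtracted signal of the brightest liver probe of each gene reported, in scanner units on an axis that is logarithmic above 10 and linear below; points are the 5 arrays, red for liver and blue for the reference RNA, and lines join the lowest and highest. In most genes both channels cover nearly the same range, while Slc22a29 and Slco4c1 stay below 10 in both.

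Detection changed between neighbouring genes of the same family. On chromosome 19 Slc22a19, Slc22a26, Slc22a27, Slc22a28, Slc22a29, Slc22a30, Slc22a8 and Slc22a6 follow each other with 0 other coding genes between them in the annotation. Of those with a probe, Slc22a29 alone was undetected, beside Slc22a30, detected on all 5 arrays. Like Slc22a29, Slco1a6 on chromosome 6 was undetected beside Slco1a5, detected on 5 arrays. On chromosome 17 Slc22a3 passed on 2 arrays and its neighbour Slc22a2 on 3. Their median liver signals of 23.3 and 25.4 were close, so this pair is split by the cut-off of 3 arrays and shows no clear contrast. Each of these undetected genes had 1 probe, so an insensitive probe and a missing transcript cannot be told apart.

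The promoter windows of 3 genes of the chromosome 19 run are printed because they flank this contrast: Slc22a26 had the lowest ratio to the reference RNA among the members, and Slc22a29 and Slc22a30 are the undetected and detected neighbours. They hold 250 bases before and 50 after the annotated start (RefSeq, GRCm38.p6, all on the minus strand, 5′ to 3′), at chr19:7802618-7802917, chr19:8218851-8219150 and chr19:8405056-8405355. Capitals in the windows of Slc22a29 and Slc22a30 mark stretches of 8 or more bases that are identical between these 2 windows in a global alignment.
Slc22a26: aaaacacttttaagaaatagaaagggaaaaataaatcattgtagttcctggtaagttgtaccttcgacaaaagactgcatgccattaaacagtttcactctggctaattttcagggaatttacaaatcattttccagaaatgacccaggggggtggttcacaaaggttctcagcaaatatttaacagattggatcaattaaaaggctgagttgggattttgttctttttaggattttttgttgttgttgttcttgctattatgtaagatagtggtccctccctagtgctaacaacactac
Slc22a29: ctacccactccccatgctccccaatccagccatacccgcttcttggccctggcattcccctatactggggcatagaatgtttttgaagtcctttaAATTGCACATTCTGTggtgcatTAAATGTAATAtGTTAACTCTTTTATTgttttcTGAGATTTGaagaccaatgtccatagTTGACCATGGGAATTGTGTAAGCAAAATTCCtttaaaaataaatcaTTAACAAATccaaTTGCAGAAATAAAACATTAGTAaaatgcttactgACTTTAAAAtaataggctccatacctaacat
Slc22a30: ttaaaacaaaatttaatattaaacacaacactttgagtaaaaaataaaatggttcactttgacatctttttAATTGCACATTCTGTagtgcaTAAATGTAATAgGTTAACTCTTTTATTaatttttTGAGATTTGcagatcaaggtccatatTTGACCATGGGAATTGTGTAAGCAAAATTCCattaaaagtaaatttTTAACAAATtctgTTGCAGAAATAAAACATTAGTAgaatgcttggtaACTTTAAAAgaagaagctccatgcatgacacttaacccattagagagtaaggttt
Slc22a29 and Slc22a30 were identical at 215 of 329 aligned columns (65.3%), in 8 such stretches of up to 31 bases. Slc22a26 was identical to Slc22a30 at 51.1% of columns and to Slc22a29 at 43.4%.

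Across all members, 28 of 32 genes had a promoter window in the table. Those without one included Slc22a7, Slc22a21 and Slco3a1. On both strands, GTTAAT, the core of the site of the hepatocyte factor HNF1, was found in 3 of the 28 genes and in 7.10% of all 32851 windows. Slc22a29 was among them, at base 222 of its window, counted from the 5′ end, on the opposite strand. AGGTCA, the core bound by nuclear receptors, was found in 2 genes (16.3% of all windows) and TATAAA in 5 (13.6%). A gene counted if any of its windows held the letters, whereas the percentages are of single windows, so the measures differ. These are matches of letters, not measured binding.

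The ratio of liver to reference RNA was then asked of each gene, on the log2 scale after normexp background correction (offset 50), which pulls dim probes toward 0. A gene entered the test if liver or reference signal of a probe passed the flag on 3 or more arrays and 3 spots were usable, and its brightest such probe stood for it. Of the 32 genes 26 were tested: Slc22a3 entered through the reference channel, and Slc22a16, with 2 usable spots, did not. With limma (mean against 0, Benjamini-Hochberg adjustment over 14910 genes), 0 members were called at adjusted p below 0.05 and at least 2-fold, against 0.865% of all genes called higher and 0.416% called lower. At an unadjusted p below 0.05, 4 were higher and 7 lower, 0 of them by 2-fold. No share of all genes was taken at this threshold, so these counts have no background to be read against. With no minimum fold, 4 members (Slc22a12, Slc22a19, Slc22a22 and Slco6c1) were higher and 4 (among them Slc22a8, Slc22a23 and Slc22a26) lower at adjusted p below 0.05. Slc22a22 entered the test through the liver channel alone, the side on which it is higher, so its p carries no support. Requiring both channels above background left 22 members, with 3 higher and 3 lower, against 1949 higher and 1868 lower of 14026 genes. Without that requirement, the shares over all 14910 genes were 14.2% higher and 12.8% lower. Of the 26 members 15.4% were higher and 15.4% lower, so neither count stood far from the background. The 95% intervals of all 26 means lay within 2-fold on this scale, from -0.82 for the lower bound of Slc22a26 to 0.60 for the upper bound of Slc22a12. The median over the members was -0.10 and over all genes -0.02.

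**Figure D2:**
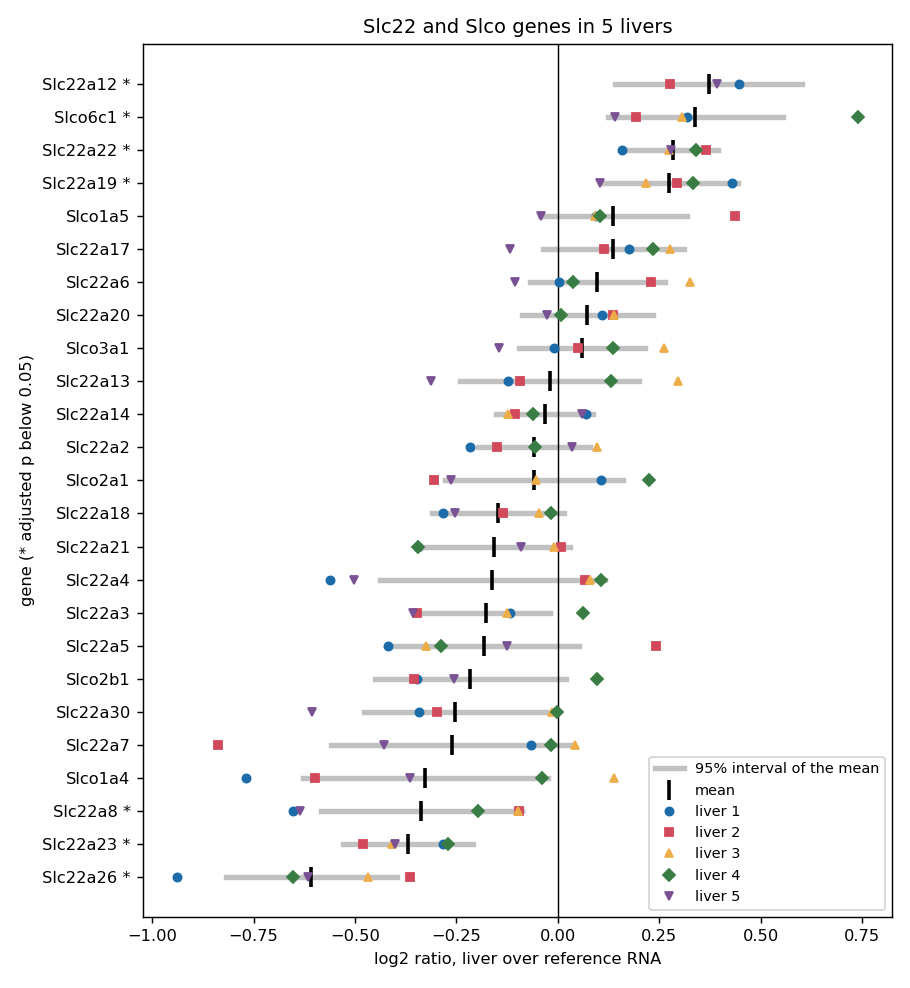
Log2 ratio of liver over reference RNA of tested genes, sorted by mean; symbols are the 5 livers, the black tick is the mean and the grey bar its 95% interval from limma. Starred genes passed an adjusted p of 0.05. In these, all usable livers lie below 0 for Slc22a26, Slc22a23 and Slc22a8 and above 0 for Slc22a12, Slco6c1, Slc22a22 and Slc22a19. Slc22a22 entered the test through the liver channel alone, so its star carries no support.

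Among the organic cation carriers, Slc22a2 (Oct2), the renal cation carrier, had ratios of -0.22, -0.15, 0.10, -0.06 and 0.04 in livers 1 to 5. Its mean of -0.06 ± 0.13 (SD, n = 5) did not pass (limma adjusted p = 0.501). Slc22a3 (Oct3), a monoamine carrier of many tissues, averaged -0.18 ± 0.18 and did not pass either (limma adjusted p = 0.0881). With Agilent's processed signals its mean was -0.87 and passed (limma adjusted p = 0.0262), as it did in the deposited ratios (0.0281). Slc22a3 entered the test through the reference channel, the side on which its signal is higher, so those p-values carry no support. Both probes lay near background, with signals well above it on 3 liver arrays and 1 reference array for Slc22a2 and on 2 liver arrays and 3 reference arrays for Slc22a3. In bulk tissue, fewer cells of a type and less RNA per cell cannot be told apart.

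Of the 4 carnitine carriers, 3 were tested and none of these passed. Slc22a5 (Octn2), the high-affinity carnitine carrier whose loss causes systemic carnitine deficiency, had liver signals of 232, 507, 398, 291 and 335, against 323, 414, 403, 434 and 506 in the reference RNA. Its log2 ratios were -0.42, 0.24, -0.33, -0.29 and -0.12, with liver 2 alone above 0. The mean was -0.18 ± 0.26 (SD, n = 5), with a 95% interval of -0.42 to 0.05 and a limma adjusted p of 0.215. Without liver 2 it was -0.29 and passed (adjusted p = 0.0436). The other probe of Slc22a5 averaged -0.42 ± 0.38, again with liver 2 highest (-0.0021) and liver 1 lowest (-0.84).

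Slc22a4 (Octn1), a carrier of the antioxidant ergothioneine, had ratios of -0.56, 0.07, 0.08, 0.11 and -0.50. Livers 1 and 5 stood well below the other 3, which lay between 0.07 and 0.11. The mean of -0.16 ± 0.34 (SD, n = 5) did not pass (limma adjusted p = 0.347). Slc22a21 (Octn3) had ratios of -0.35, 0.01, -0.01, -0.34 and -0.09, so that livers 1 and 4 were lowest. Its mean was -0.16 ± 0.18 (SD, n = 5; limma adjusted p = 0.182). Slc22a16, known in human testis as the carnitine carrier CT2, had 2 usable spots, at 0.04 in liver 1 and 0.25 in liver 4. With spots marked as outliers kept, its 5 ratios ran from -0.12 in liver 5 to 0.33 in livers 2 and 3.

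The organic anion branch held both the lowest and the highest mean among the tested members. Slc22a26 was lower, with signals of 90, 125, 208, 131 and 136 in livers 1 to 5, against 225, 166, 225, 292 and 362 in the reference RNA. All 5 ratios were below 0, at -0.94, -0.36, -0.47, -0.65 and -0.62. The mean was -0.61 ± 0.22 (SD, n = 5), or 1.52-fold lower (limma adjusted p = 0.00328), and it passed under all 14 alternative settings. Its size depended on the processing, with means from -0.88 (processed signals and deposited ratios) to -0.53 under these settings. Slc22a8 (Oat3), a renal uptake carrier for drugs and conjugates, had ratios of -0.65, -0.09, -0.10, -0.20 and -0.64, a mean of -0.34 ± 0.29 and a limma adjusted p of 0.0497. Livers 1 and 5 were lowest, and the call was lost whichever single liver was left out (adjusted p from 0.0501 to 0.140). A different Slc22a8 probe, above background on 5 liver arrays but on 1 reference array, averaged 0.35 ± 0.18, and the remaining one was undetected in both channels. The direction for Slc22a8 is thus that of 1 probe.

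Slc22a12 (Urat1), the renal urate exchanger, was higher in its 3 usable livers. The signals were 2522, 4140 and 4472 in livers 1, 2 and 5, against 1831, 3542 and 4646 in the reference RNA on those arrays. On the array of liver 5 the liver signal before normalization was thus the lower one. The normalized ratios were 0.45, 0.28 and 0.39, a mean of 0.37 ± 0.09 (SD, n = 3) or 1.29-fold higher (limma adjusted p = 0.0312). With the 2 outlier spots kept, all 5 ratios lay between 0.25 and 0.42. With median centring in place of loess the mean was 0.15 and did not pass (adjusted p = 0.590). Of the kidney markers, Slc12a3 at 0.44 and Kap at 0.58 were also higher and Slc12a1 at -0.24 lower (limma adjusted p = 0.00711, 0.00460 and 0.0341), and the list's median was -0.01. The part of kidney transcripts or of shared probe signal in the Slc22a12 value was not tested.

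Slc22a19 (Oat5), a renal carrier in rodents, had ratios of 0.43, 0.29, 0.22, 0.33 and 0.10, all above 0, and a mean of 0.28 ± 0.12 (limma adjusted p = 0.0264). Its call was lost without liver 1, 2, 3 or 4 (adjusted p from 0.0551 to 0.0889) and with median centring (0.0733). Slc22a22 (Oat-pg), a prostaglandin carrier of mouse kidney, averaged 0.28 ± 0.08 (SD, n = 5; ratios of 0.16, 0.37, 0.28, 0.34 and 0.28), from signals of 2, 46, 39, 21 and 58 in liver against -8, 11, 12, 7 and 40 in the reference RNA. The liver signal was well above background on 3 arrays and the reference on 1, so this ratio is set against a channel near background, and with Agilent's processed signals the mean was 0.83 (adjusted p = 0.0945).

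Slc22a7 (Oat2), an anion carrier of hepatocytes, differed most between livers in this branch. Its signals were 782, 599, 1373, 1028 and 728 in livers 1 to 5, against 810, 1074, 1178, 1317 and 1489 in the reference RNA. The ratios were -0.07, -0.84, 0.04, -0.02 and -0.43, with liver 2 far below livers 1, 3 and 4. The mean of -0.26 ± 0.37 (SD, n = 5) did not pass (limma adjusted p = 0.165). Slc22a30 had ratios of -0.34, -0.30, -0.01, -0.0027 and -0.61, with liver 5 lowest and a mean of -0.25 ± 0.25 (SD, n = 5). Its other probe averaged -0.48 ± 0.32 (n = 4) and also had liver 5 lowest (-0.83). Slc22a30 passed with median centring (-0.41, adjusted p = 0.0403) and in the deposited ratios (-0.44, adjusted p = 0.0287), but not with loess and normexp (adjusted p = 0.0882). With Agilent's processed signals the mean was -0.27 and did not pass either (limma adjusted p = 0.0659). The other probe may have stood for this gene in the deposited ratios, and why they differed from the processed signals was not tested. 

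The remaining anion carriers had livers on both sides of 0. Slc22a6 (Oat1), the renal drug carrier, had ratios of 0.0021, 0.23, 0.33, 0.04 and -0.11 and a mean of 0.10 ± 0.18 (limma adjusted p = 0.346). Slc22a13 had ratios of -0.12, -0.09, 0.30, 0.13 and -0.31 and a mean of -0.02 ± 0.24 (adjusted p = 0.892). Livers 3 and 5 stood farthest apart in both genes. Slc22a20 (Oat6) of the olfactory mucosa had ratios of 0.11, 0.13, 0.14, 0.01 and -0.03 and a mean of 0.07 ± 0.08 (limma adjusted p = 0.472), with only liver 5 below 0.

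Of the members without a settled substrate, Slc22a23 was lower, with little spread between livers. Its signals were 979, 1122, 1585, 1362 and 1257 in livers 1 to 5, against 1213, 1604, 1858, 2131 and 2421 in the reference RNA. The ratios were -0.28, -0.48, -0.41, -0.27 and -0.40, with a mean of -0.37 ± 0.09 (SD, n = 5; limma adjusted p = 0.00751), and passed under all 14 alternatives. Its other probe averaged -0.23 ± 0.20, with 5 livers below 0. Slc22a18, from an imprinted region, had ratios of -0.28, -0.13, -0.05, -0.02 and -0.25. All 5 livers were below 0, but the mean of -0.15 ± 0.12 did not pass (adjusted p = 0.156). Its other probe averaged -0.25 ± 0.09 (n = 4). Slc22a14, known from sperm, had ratios of 0.07, -0.11, -0.12, -0.06 and 0.06 near background and a mean of -0.03 ± 0.09 (limma adjusted p = 0.679).

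Slc22a17, described as the lipocalin 2 receptor 24p3R, has a probe with liver signals from 9395 to 30766 and reference signals from 6029 to 21109. The scanner software marked 4 of its 5 spots as outliers, which left 1 value, 0.33 in liver 3. With those spots kept the ratios were 0.57, 0.51, 0.34, 0.44 and 0.27, and the gene stood higher (mean 0.43, limma adjusted p = 0.00472). The second probe, with signals of 106 to 219 in liver against 81.2 to 152 in the reference RNA, had ratios of 0.17, 0.11, 0.28, 0.23 and -0.12. Its mean of 0.14 ± 0.15 (SD, n = 5) did not pass (adjusted p = 0.211).

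Among the Slco genes, Slco1a4 (Oatp1a4), which takes up bile acids and digoxin in liver and at the blood-brain barrier, varied most. Its liver signals were 54, 178, 488, 268 and 176, against 130, 262, 322, 328 and 357 in the reference RNA. The ratios were -0.77, -0.60, 0.14, -0.04 and -0.37, so that liver 3 alone was above 0. The mean of -0.33 ± 0.38 (SD, n = 5) did not pass (limma adjusted p = 0.0984), though it did without liver 3 (-0.44, adjusted p = 0.0435) and with median centring (-0.37, adjusted p = 0.0285). Slco1a5 had ratios of 0.09, 0.44, 0.09, 0.10 and -0.04 on its brighter probe, with liver 2 highest and a mean of 0.14 ± 0.18 (limma adjusted p = 0.228). Its other probe averaged 0.18 ± 0.17. Because Slco1a genes resemble each other in sequence, signal on a probe for one may come partly from another.

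Slco2b1 (Oatp2b1), an uptake carrier for steroid sulfates, had ratios of -0.35, -0.35, 0.10 and -0.26 in livers 1, 2, 4 and 5, and its mean of -0.22 ± 0.21 (SD, n = 4) did not pass (limma adjusted p = 0.150). Slco2a1, the prostaglandin transporter, had ratios of 0.11, -0.31, -0.05, 0.22 and -0.26 and a mean of -0.06 ± 0.23 (limma adjusted p = 0.678). Slco3a1 had ratios of -0.0084, 0.05, 0.26, 0.14 and -0.15 and a mean of 0.06 ± 0.15 (adjusted p = 0.549). Neither gene lay on 1 side of 0 in all livers. Slco6c1, a testis carrier in rodents, was higher, with signals of 166, 158, 281, 191 and 137 in liver against 119, 117, 159, 107 and 157 in the reference RNA. Its ratios were 0.32, 0.19, 0.31, 0.74 and 0.14, a mean of 0.34 ± 0.24 (limma adjusted p = 0.0300), and liver 4 was the high one. The call was lost without liver 1, 3 or 4 (adjusted p from 0.0569 to 0.0892), and without liver 4 the mean was 0.24. Of 10 tested testis markers, Prm1 at 0.59 and Pgk2 at 0.37 were higher and Tnp2 at -0.36 and Tssk2 at -0.43 lower at adjusted p below 0.05, with a list median of -0.06. Their part in the Slco6c1 value was not tested.

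**Figure D3:**
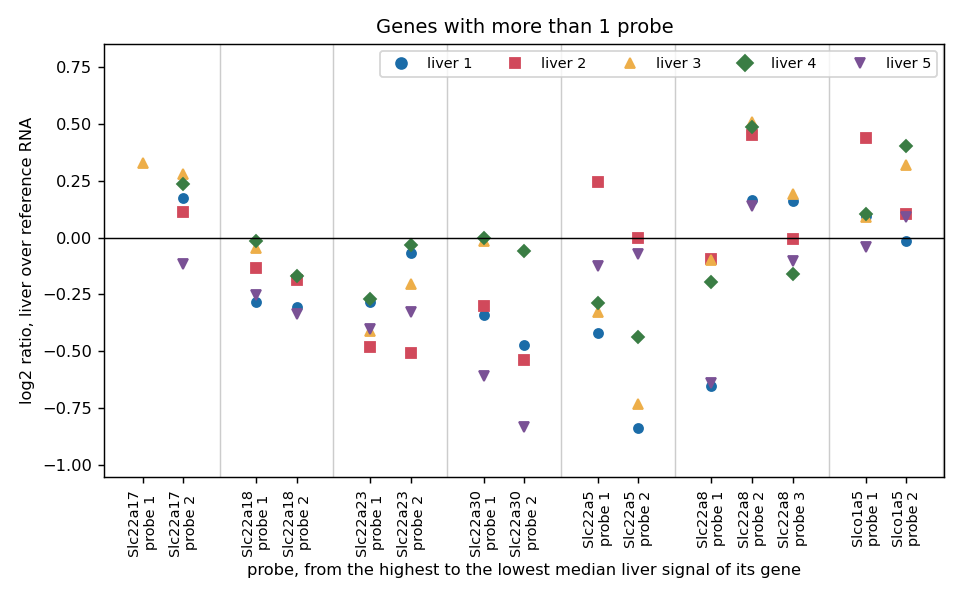
Log2 ratio of liver over reference RNA for each probe of the 7 genes with more than 1 probe, ordered by median liver signal within the gene; symbols are livers, and missing symbols are spots left out as outliers. The probes of Slc22a18, Slc22a23, Slc22a30 and Slc22a5 lie mostly on the same side of 0, whereas Slc22a8 has its brightest probe below 0 and the next above it.

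The other quantity measured was the spread between livers, over the 19 members well above background in both channels with values on all arrays. The median SD was 0.23 for these genes and 0.19 for all 12450 genes tested in this way. Comparing the variance of a gene with limma's intensity-dependent prior by an F test called 0 of the 19, and 0 also at an unadjusted p below 0.05. Over all genes it called 0 (a share of 0), with 695 (5.58%) at an unadjusted p below 0.05. With the prior taken as fixed, an alternative added after seeing the data, 1292 genes (10.4%) and 0 of the 19 members passed after adjustment. Slco1a4, Slc22a7 and Slc22a4 then had unadjusted p of 0.00745, 0.00773 and 0.0226 (adjusted p = 0.0655, 0.0672 and 0.147).

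Across these 19 genes the low values gathered in certain livers. Liver 1 held the lowest ratio of 8 genes, liver 5 of 8, liver 2 of 3, and livers 3 and 4 of 0. Over all 12450 genes, the lowest ratio fell in livers 1 to 5 for 20.6%, 28.9%, 18.2%, 13.8% and 18.4%. The median ratio of the 19 genes was -0.28, -0.09, 0.04, -0.0027 and -0.25 in livers 1 to 5. Over the 14910 genes of the ratio test, dim ones included, the median stayed between -0.02 and -0.0047. Loess sets the bulk of each array near 0, so that flatness follows from the normalization. With median centring, liver 1 held the lowest ratio of 3 genes and liver 5 of 14. The count for each liver thus depends on the normalization. Liver 3 held 0 under each of the 4 alternatives. No shares over all genes were taken under these alternatives, so their counts have no background to be read against. The median hepatocyte marker stood at 0.78, 0.80, 0.19, 0.46 and 0.54 in livers 1 to 5 and the median red blood cell marker at -1.35, -0.43, -0.53, -0.44 and -0.52. The median background-subtracted signal of an array ranged from 77.4 to 176 in the liver channel and from 74.0 to 149 in the reference channel, with liver 1 lowest in both channels and the reference highest on the array of liver 5. Their part in the pattern was not tested.

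**Figure D4:**
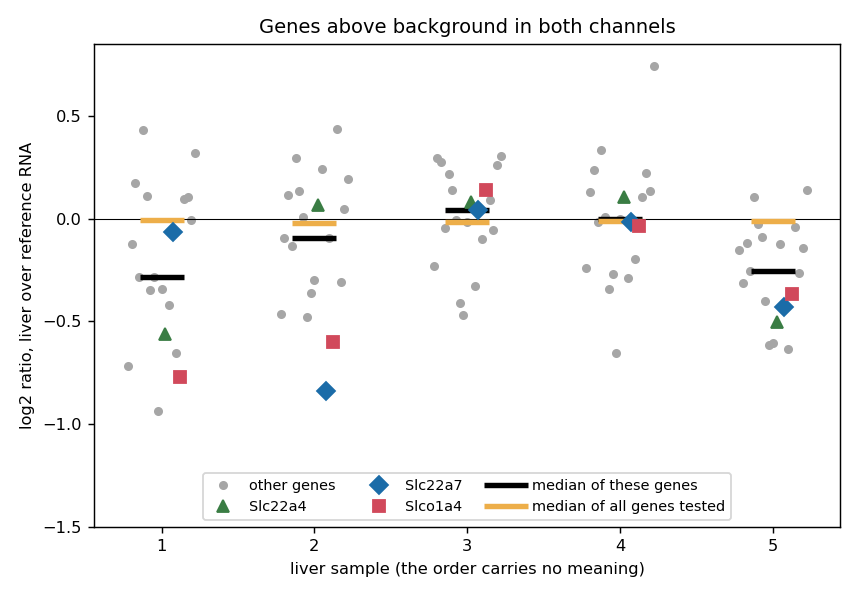
Log2 ratio of liver over reference RNA of the 19 Slc22 and Slco genes well above background in both channels, by liver sample; black bars are their medians and yellow bars the medians of all genes tested. The black bar lies below the yellow one most clearly in livers 1 and 5, and Slco1a4, Slc22a7 and Slc22a4 are marked as the genes with the largest spread.

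Genes that work with these carriers were listed by function. Of 21 tested partner transporters 14 were below 0, with a median of -0.16. At adjusted p below 0.05, 3 were higher, 7 lower and 0 reached 2-fold. With no minimum fold, the shares over all 14910 genes were 14.2% higher and 12.8% lower. The exporter gene Abcc4 had the lowest mean (-0.65 ± 0.20, SD, n = 5; limma adjusted p = 0.00200). The P-glycoprotein gene Abcb1a, a drug exporter and 1 of the 3 higher, entered the test through liver alone. Its median signal was 129 in liver and 17.3 in the reference RNA, which was well above background on 1 array, so its mean of 0.82 ± 0.38 is set against a channel near background. Slc10a1, the sodium-dependent bile acid carrier of hepatocytes, averaged -0.10 ± 0.49 and Slc47a1, which exports cations into bile and urine, -0.26 ± 0.37, neither past the test. Of 19 tested regulators 2 were higher and 4 lower (median -0.16), with Foxa1 highest at 0.58 and Ppara, the fatty acid sensing receptor, lowest at -0.75 ± 0.60 (limma adjusted p = 0.0346). Hnf4a, a main activator of hepatocyte transporter genes, averaged -0.09 ± 0.34 over 3 usable livers.

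In the carnitine system, which makes carnitine and loads it with fatty acids, 10 of 11 tested genes were below 0, with a median of -0.19, and 2 passed as lower. Shmt1, a serine hydroxymethyltransferase, was at -0.72 ± 0.31 (n = 4) and Bbox1, the last enzyme of carnitine synthesis, at -0.46 ± 0.27 (n = 5; limma adjusted p = 0.00628 and 0.0141). Cpt1b was highest, at 0.11. Of the 14 hepatocyte markers, 7 were higher, 3 of them by at least 2-fold (Alb, Ahsg and Fgb), and 1 was lower, with a median of 0.56. Over all genes tested, 53.2% had a mean below 0, and 14.2% were higher and 12.8% lower at adjusted p below 0.05. Of the lists for other liver cells, all 11 tested endothelial and 10 of 11 macrophage markers were below 0, with medians of -0.34 and -0.36 and 6 and 8 genes lower. Of the 4 tested red blood cell markers all were below 0 and 2 lower (median -0.74), and of 8 bile duct markers 2 were lower (median -0.01). Of 8 tested brain markers 3 were higher and 1 lower (median 0.13). The lists' part in the members' values was not tested.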

How the data were processed

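The deposited scanner files hold intensity values, which per the file headers come from Feature Extraction 11.5.1.1 by Agilent: median spot and local background brightness in both channels, background-subtracted signals and processed signals. For 40599 probes log2 ratios are deposited as well, and 99.7% of those compared equalled log2 of processed Cy5 over processed Cy3 to within 0.001. Here, median intensities were corrected with normexp (offset 50) and normalized by loess within each array, with control and outlier spots at weight 0, in limma 3.58.1 (R 4.3.3). Outlier spots, 2.32% to 4.05% per array, were then left out. Names came from RefSeq accessions in GRCm38.p6; the arrays use build mm8 and no coordinate was carried over. eBayes used an intensity trend and robust prior, two-sided, and was tested on simulated data. The number of arrays limits the precision, and the tests leave out any spread of the reference RNA. One member is counted but not reported here. Every other member is named, with the ratio in each liver, mean, SD and adjusted p for those detected and tested. For Slc22a22 the only p given is from processed signals. List genes are named where called, highest or lowest, others after their values were seen. The members and lists were chosen with earlier results of these data known.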

Additional observations from a re-analysis of the deposited data

How the results depend on the processing

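Under all 14 alternatives to the ratio test, 0 members reached 2-fold with an adjusted p below 0.05. The number of members higher at adjusted p below 0.05 (4) was 2 with median centring and 1 to 2 when a liver was left out. It was 3 from processed signals, in the deposited ratios and with both channels required, and 5 with outlier spots kept. The number lower (4) was 6 with median centring and in the deposited ratios, 5 from processed signals and 2 to 4 when a liver was left out. Other settings gave 3 or 4 lower. Slc22a3 was among those lower from processed signals and in the deposited ratios. Over all genes, 1903 of 14910 were lower, 2079 with median centring, 2258 from processed signals and 2317 of 15002 in the deposited ratios. Those higher were 2117, 1675, 2038 and 2169 in the same order. Over all genes, the 129 called higher and 62 lower at 2-fold were 97 and 77 with median centring, 85 and 63 with the probes of a gene averaged, 324 and 155 using the deposited ratios and 318 and 157 using processed signals. Leaving out a liver also tested fewer samples and fewer genes. The spread test called 0 members under each alternative. Over all genes it called 225 of 12450 with median centring and 1292 with the prior taken as fixed. Under every other setting it called 0 of all genes too, so the 0 for members carries no information there. In simulated data it recovered 73% of genes given 10 times the SD. The count detected (26) was 23 to 28 under other detection rules and 23 to 25 with a liver left out. The mean changed sign for Slc22a2 (0.11), Slc22a20 (-0.011) and Slc22a6 (-0.0025) from processed signals as from the deposited ratios, Slc22a14 (0.034) with median centring, Slc22a8 (0.0064) with its tested probes averaged, and, with a liver left out, Slc22a13 (-0.0997 to 0.053, above 0 without liver 1 at 0.0054 or 5) and Slco2a1 (-0.129 to 0.0033, above 0 without liver 2). For the averaged Slc22a8 the opposed probe shows the cause, and for the others the cause was not tested. A slide block was not run because each array lay on a slide of its own. No paired analysis was possible because all samples form 1 group. Near background, ratios depend on the background correction.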
